A study of Homo sapiens with 4 samples.

Results

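The genes described here are host genes of small RNAs: transcripts whose own exons mostly code for no protein, while a small nucleolar RNA (snoRNA), a small Cajal body RNA (scaRNA) or a microRNA is cut from the same precursor. They were chosen by name alone, as every gene called SNHG (small nucleolar RNA host gene) with a number, together with 7 host genes named singly: GAS5, ZFAS1, DANCR, MIR17HG, MIR22HG, MIR155HG and MIR4435-2HG. The table of 25122 genes held 25 of them, 19 with an SNHG name and 6 of the 7 named singly; DANCR was not analysed here. Their values come from mRNA sequencing of the human cell line Jurkat, a long-established T-cell acute lymphoblastic leukaemia line that the labels give as genotype WT. A control short hairpin RNA (shcontrol) was used in 2 libraries and a hairpin against BDH1 (shBDH1) in the other 2. BDH1 is the mitochondrial enzyme that interconverts the ketone bodies acetoacetate and 3-hydroxybutyrate, and the study's description names MYC and NKX3.1 as genes of interest downstream of it. The description also mentions cells with MYC restored, which were not analysed here, so the single comparison is shBDH1 against shcontrol. The labels give neither the vector nor the hairpin sequence, nor whether replicates were grown apart, so each p-value below reflects the variation among these 4 libraries alone, and that variation may be technical.

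As background, most human snoRNAs are not transcribed from genes of their own but lie in the introns of host genes, from which they are trimmed after splicing. Box C/D snoRNAs guide the 2′-O-methylation of ribosomal RNA and box H/ACA snoRNAs guide its pseudouridylation, while scaRNAs do the same for spliceosomal RNAs. Many host transcripts begin with a run of pyrimidines, the terminal oligopyrimidine (TOP) start shared with ribosomal protein mRNAs, which couples their translation to growth signals. Where such a transcript is translated it usually ends early, and nonsense-mediated decay removes the spliced RNA. GAS5 is the textbook case, named for its build-up in growth-arrested cells. The microRNA hosts work in a like manner, except that DROSHA cuts the microRNA hairpin out of the precursor. The libraries measured the host transcripts; mature snoRNAs and microRNAs are too short for them and were not measured.

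RefSeq places 135 snoRNAs, 3 scaRNAs and 9 microRNAs inside the 25 host genes. SNHG14 alone holds 83 of the snoRNAs and the other hosts 52, with 11 in GAS5, 9 in SNHG1 and 1 to 5 in most of the rest. The sequences of some of the hosted RNAs show what these genes are for, and were read from RefSeq or from GENCODE 29 coordinates on GRCh38. In the C/D RNAs shown, capitals mark the C box TGATGA near the start and the D box CTGA near the end, the pair of boxes that binds the core proteins. In SNORA24 they mark the ACA box 3 bases from its end. The C/D RNAs shown are those with both exact boxes. SNORD22, SNORD26 and SNORD28 of SNHG1, not shown, had the CTGA but no exact TGATGA near the start.
SNORD25 of SNHG1 (chr11:62855564-62855632, minus strand): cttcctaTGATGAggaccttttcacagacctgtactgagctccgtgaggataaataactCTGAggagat
SNORD27 of SNHG1 (chr11:62855012-62855083, minus strand): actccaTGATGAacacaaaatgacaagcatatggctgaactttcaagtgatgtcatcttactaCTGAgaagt
SNORD30 of SNHG1 (chr11:62853663-62853732, minus strand): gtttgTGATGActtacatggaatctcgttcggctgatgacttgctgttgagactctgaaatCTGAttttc
SNORD60 of SNHG19 (chr16:2155023-2155105, minus strand): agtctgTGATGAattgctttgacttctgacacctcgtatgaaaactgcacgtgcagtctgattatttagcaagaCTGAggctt
SNORD50B of SNHG5 (chr6:85677589-85677658, minus strand): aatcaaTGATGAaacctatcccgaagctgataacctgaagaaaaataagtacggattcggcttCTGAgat
SNORA24 of SNHG8 (chr4:118279190-118279320, plus strand): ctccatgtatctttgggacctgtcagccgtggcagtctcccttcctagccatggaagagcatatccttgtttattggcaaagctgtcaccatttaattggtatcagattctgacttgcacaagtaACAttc

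The libraries held between 28681511 and 29453383 reads in genes, so depth was close to equal. Values are normalized counts, that is reads of a gene divided by 1 size factor per library, and changes are log2 differences of value + 1, shBDH1 minus shcontrol, tested with limma. BDH1 itself stood at 1725 and 1911 normalized counts in shcontrol and at 1221 and 1412 in shBDH1 (log2 fold change -0.47, SE 0.078, limma adjusted p = 1.5e-05), a fall of 27.6%. MYC, the transcription factor that drives ribosome production, stood at 14683 and 14804 against 7453 and 7368 (log2 fold change -0.99, SE 0.038, limma adjusted p = 2.7e-18). Of 11 T-cell genes tested, 9 were higher and 1 lower in shBDH1, with summed values of 52699 and 52938 against 67014 and 67069. Of 6 markers of natural killer and cytotoxic cells 4 were higher, with sums of 220 and 194 against 807 and 781. Over all genes tested 20.3% were higher and 20.8% lower (limma, adjusted p under 0.05). B-cell markers summed to 220 in both shcontrol libraries and to 686 and 666 in shBDH1, and myeloid markers to 56.5 to 72.7. Of the fibroblast and epithelial markers only COL1A1 and vimentin (VIM) were matched to a row, so their sum holds no epithelial marker. That sum was 11206 and 12431 against 15824 and 16048. Single genes carried some of these sums: VIM, which T cells also express, gave 10818 and 12025 against 15278 and 15514, and CD79A gave 125 and 144 against 600 and 601 of the B-cell sum. Of 34 marker entries 27 were matched to a row; none of these 27 was at 0 in all libraries, and the part of these shifts in the results below was not tested.

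Most of the host genes were lower in the BDH1-depleted cells. Of the 23 that reached a mean of 10 normalized counts and were tested, 12 fell, 3 rose and 8 were not called (limma, adjusted p under 0.05). Over all 19301 genes tested the call rate was 41.1%, with 20.8% lower and 20.3% higher, so the share of host genes that fell, 52.2%, stood above the background and the share that rose, 13.0%, below it. The median log2 fold change was -0.30 for the host genes and -0.01 for all genes. Most of these hosts are abundant, and among the 2708 genes that are not protein-coding and have a mean of 100 or more the call rate was 36.8%, with 21.3% lower, 15.5% higher and a median of -0.06. In normalized counts 21 of the 23 hosts had groups that did not overlap, 16 of them lower and 5 higher, where 69.0% of all genes tested did not overlap. Summed over all 25, the host genes took 0.166% and 0.17% of the normalized counts in shcontrol and 0.144% and 0.151% in shBDH1. Values per library describe a culture as a whole, so fewer cells with a transcript and less of it per cell cannot be told apart.

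**Figure D1:**
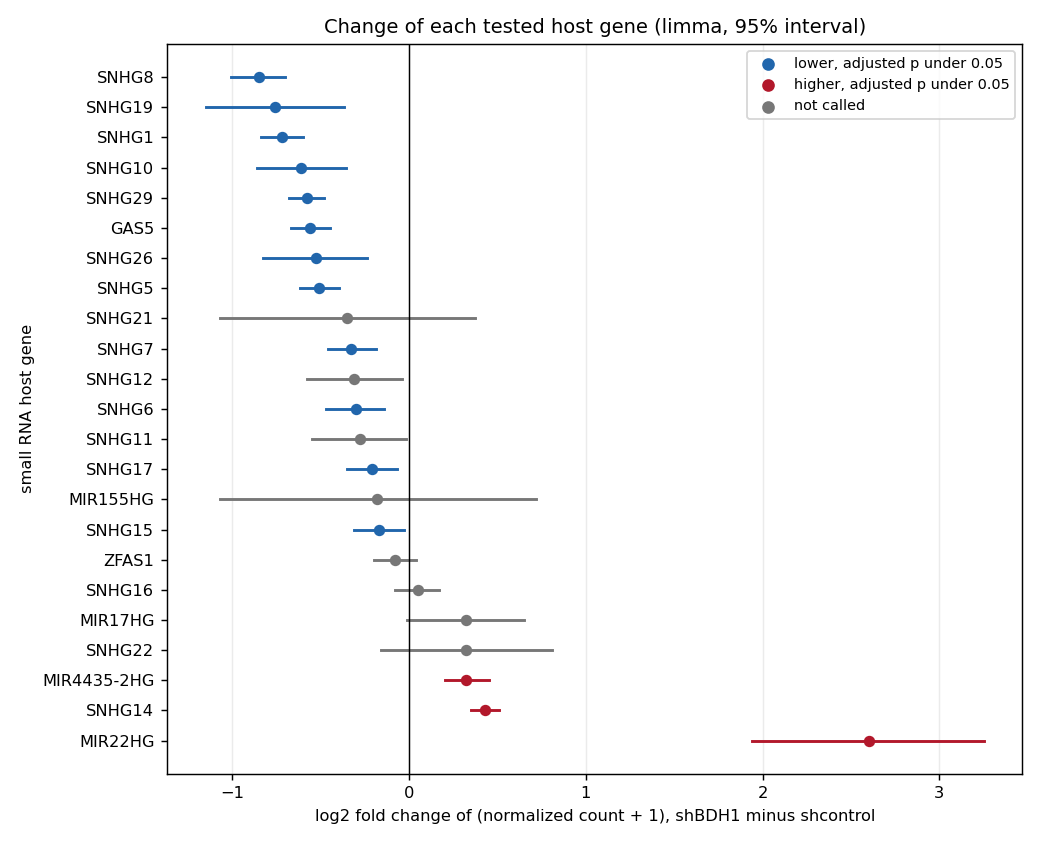
Log2 fold change of each of the 23 tested host genes (x axis, shBDH1 minus shcontrol, of normalized count + 1), with points for the limma estimate and bars for its 95% interval. The snoRNA hosts fill the left side from SNHG8 at -0.85, while MIR4435-2HG, SNHG14 and MIR22HG are the 3 genes called higher.

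The fall was steepest in SNHG8, the host of the H/ACA RNA SNORA24. SNHG8 stood at 1715 and 1720 normalized counts in shcontrol and at 910 and 992 in shBDH1, 44.6% lower (log2 fold change -0.85, SE 0.077, limma adjusted p = 3.8e-10). SNHG1, whose introns carry a string of C/D RNAs (SNORD22 and SNORD25 to SNORD31), stood at 4775 and 5036 against 2759 and 3207, 39.2% lower (log2 fold change -0.72, SE 0.059, limma adjusted p = 5.1e-11). In both genes every shBDH1 library lay well under every shcontrol library. SNHG29, called LRRC75A-AS1 in GENCODE 29 and host of SNORD49A, SNORD49B and SNORD65, went from 9057 and 9333 to 5767 and 6549 (log2 fold change -0.58, SE 0.048, limma adjusted p = 6.5e-11). GAS5, which holds SNORD44, SNORD47 and SNORD74 to SNORD81, went from 4228 and 4529 to 2924 and 3019 (log2 fold change -0.56, SE 0.053, limma adjusted p = 1.1e-09). SNHG5, the host of SNORD50A and SNORD50B, went from 3565 and 3597 to 2486 and 2540 (log2 fold change -0.51, SE 0.055, limma adjusted p = 1.1e-08). In each of these 5 genes the gap between the groups was larger than the spread within them.

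SNHG10 gives the scaRNA SCARNA13, which guides modification of spliceosomal RNA. It stood at 585 and 529 normalized counts in shcontrol and at 366 and 363 in shBDH1, 34.6% lower (log2 fold change -0.61, SE 0.12, limma adjusted p = 0.00018). SNHG7, the host of SNORA17A and SNORA17B, fell less, from 2374 and 2387 to 1796 and 2002 (log2 fold change -0.33, SE 0.065, limma adjusted p = 0.00016). Neither gene had groups that overlapped.

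A further 5 hosts fell in the fit of all libraries but not in every fit with a library left out. SNHG19, the host of SNORD60, stood at 290 and 269 normalized counts in shcontrol and at 135 and 200 in shBDH1 (log2 fold change -0.76, SE 0.19, limma adjusted p = 0.0019). Its 2 shBDH1 libraries lay far apart, and without shBDH1 replicate 1 the change was -0.48 (limma adjusted p = 0.079). SNHG26, the host of SNORD93, stood at 420 and 373 against 268 and 278 (log2 fold change -0.53, SE 0.14, limma adjusted p = 0.0033). Without shcontrol replicate 1 it gave -0.45 (limma adjusted p = 0.055). SNHG6, the host of SNORD87, showed the same kind of spread in shBDH1 as SNHG19, with 1538 and 1593 against 1162 and 1388 (log2 fold change -0.30, SE 0.08, limma adjusted p = 0.0032). It gave -0.17 without shBDH1 replicate 1 (limma adjusted p = 0.12).

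SNHG17, which holds SNORA71A to SNORA71D, and SNHG15, which holds SNORA9, had the smallest falls that were called. SNHG17 stood at 1769 and 1866 normalized counts against 1598 and 1552 (log2 fold change -0.21, SE 0.068, limma adjusted p = 0.016). The call was lost without shcontrol replicate 2 (-0.17, limma adjusted p = 0.16) and without shBDH1 replicate 2 (-0.19, limma adjusted p = 0.078). SNHG15 stood at 1832 and 1952 against 1620 and 1744 (log2 fold change -0.17, SE 0.069, limma adjusted p = 0.048). In both genes the groups did not overlap, but the shBDH1 mean was only 13.4% (SNHG17) and 11.1% (SNHG15) below the shcontrol mean. SNHG15 sat at the threshold and was not called without shcontrol replicate 1 (limma adjusted p = 0.05), without shcontrol replicate 2 (0.31) or without shBDH1 replicate 1 (0.27).

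**Figure D2:**
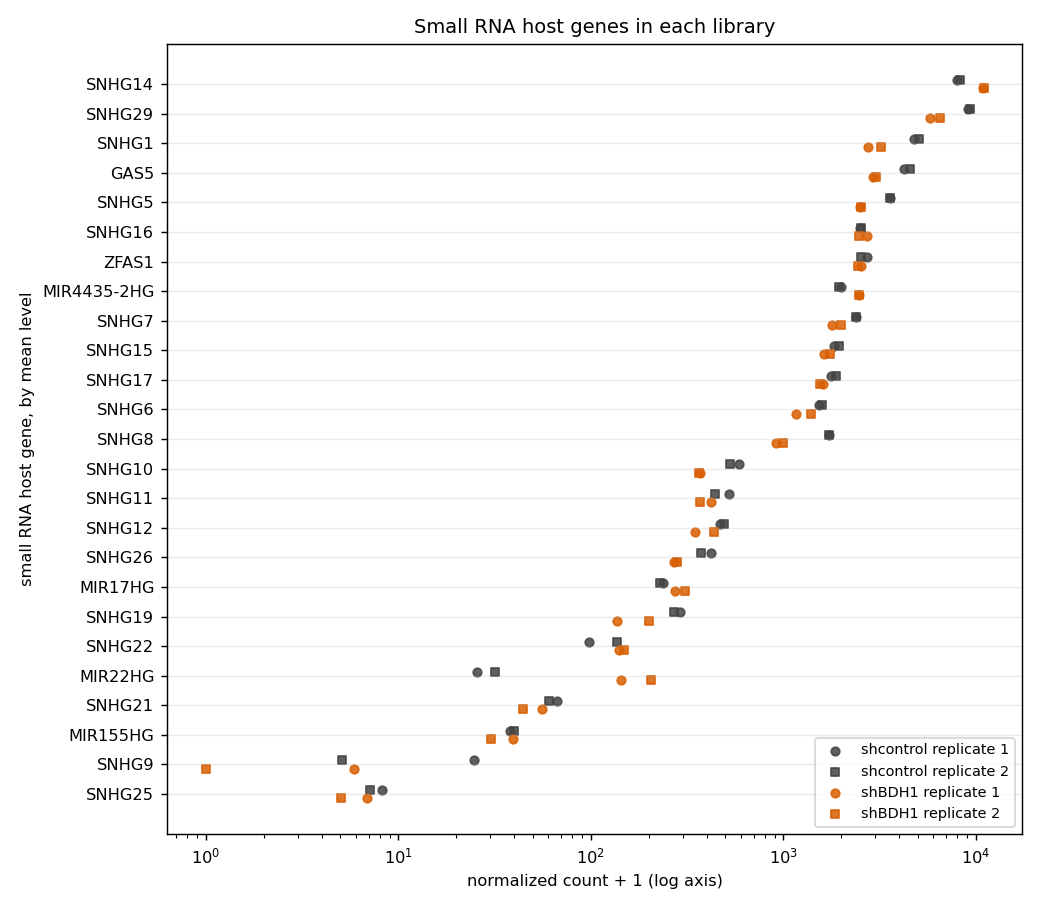
Normalized count + 1 (x axis, log scale) of each of the 25 host genes in each of the 4 libraries, ordered by mean level. The shBDH1 libraries lie to the left of both shcontrol libraries for SNHG29, SNHG1, GAS5, SNHG5 and SNHG8, and to the right for SNHG14, MIR4435-2HG and MIR22HG.

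Not every snoRNA host fell. ZFAS1, the host of SNORD12, SNORD12B and SNORD12C, stood at 2705 and 2545 normalized counts in shcontrol and 2534 and 2433 in shBDH1 (log2 fold change -0.08, 95% interval -0.20 to 0.04, limma adjusted p = 0.31). SNHG16, the host of SNORD1A to SNORD1C, stood at 2504 and 2533 against 2727 and 2482 (log2 fold change 0.05, 95% interval -0.08 to 0.17, limma adjusted p = 0.57). Both intervals leave out a fall as large as that of SNHG5 or GAS5. The sign of SNHG16 rested on 1 library, since without shBDH1 replicate 1 its change was -0.02. That of ZFAS1 held, at -0.12 to -0.04 with 1 library left out.

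SNHG12, the host of SNORA16A, SNORA44, SNORA61 and SNORD99, and SNHG11, the host of SNORA60 and SNORA71E, lay near the threshold. SNHG12 stood at 468 and 493 normalized counts against 345 and 434 (log2 fold change -0.31, 95% interval -0.58 to -0.04, limma adjusted p = 0.061) and moved both ways with a shBDH1 library left out, to -0.48 without replicate 2 (limma adjusted p = 0.021, called) and to -0.14 without replicate 1 (0.49). SNHG11 stood at 521 and 442 against 421 and 368 (log2 fold change -0.28, 95% interval -0.55 to -0.02, limma adjusted p = 0.082) and was likewise unsteady: -0.40 without shcontrol replicate 2 (limma adjusted p = 0.04, called), -0.17 without shcontrol replicate 1 (0.48) and -0.19 without shBDH1 replicate 2 (0.38). The groups of both genes were apart, by less than the spread inside 1 of the groups. SNHG21 and SNHG22, which give SCARNA15 and SCARNA17, were low: 65.7 and 59.3 against 55.0 and 43.2 for SNHG21 (log2 fold change -0.35, 95% interval -1.07 to 0.37), and 96.5 and 135 against 139 and 148 for SNHG22 (0.32, -0.16 to 0.81). Intervals this wide allow a change in either direction. With 1 library left out SNHG22 ran from 0.08 (without shcontrol replicate 1) to 0.56 (without shcontrol replicate 2), and SNHG21 from -0.52 (without shBDH1 replicate 1) to -0.18 (without shBDH1 replicate 2). SNHG9 and SNHG25 were too low to test: SNHG9 had 23 and 4 reads in shcontrol and 5 and 0 in shBDH1, and SNHG25 had 4 to 7 reads in each library.

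SNHG14 was the 1 snoRNA host that rose. It is the very long imprinted transcript of the Prader-Willi and Angelman region on chromosome 15, normally read from the paternal copy, with arrays of C/D RNAs in its introns, and its distal part runs antisense to UBE3A. SNHG14 stood at 7974 and 8276 normalized counts in shcontrol and at 10857 and 10967 in shBDH1, 1.34-fold (log2 fold change 0.43, SE 0.039, limma adjusted p = 5.5e-10). All 26 annotated transcripts are summed in this value, over an exon length of 43324 bases, so it does not say which stretch of the gene rose. UBE3A, the ubiquitin ligase that SNHG14 overlaps on the other strand with 198 shared exon bases, stood at 4736 and 5200 against 5885 and 5664 (log2 fold change 0.22, SE 0.049, limma adjusted p = 0.00066). UBE3A was thus higher as well, and was not called without shcontrol replicate 1 (0.15, limma adjusted p = 0.064).

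The 4 microRNA hosts differ in what they give. Their mature microRNAs, from RefSeq (GRCh38.p14), are shown with the seed, bases 2 to 8, in capitals, since it is the seed that pairs with target mRNAs. Within the MIR17HG cluster miR-17-5p and miR-20a-5p share the seed AAAGUGC, and miR-19a-3p and miR-19b-3p share GUGCAAA, so these form 2 seed families from 1 host; the seeds of the other hosts stand alone among those shown.
hsa-miR-22-3p of MIR22HG: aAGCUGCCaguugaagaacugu
hsa-miR-4435 of MIR4435-2HG: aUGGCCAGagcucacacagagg
hsa-miR-155-5p of MIR155HG: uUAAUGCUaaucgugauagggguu
hsa-miR-17-5p of MIR17HG: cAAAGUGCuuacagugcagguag
hsa-miR-20a-5p of MIR17HG: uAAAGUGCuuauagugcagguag
hsa-miR-18a-5p of MIR17HG: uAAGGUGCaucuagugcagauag
hsa-miR-19a-3p of MIR17HG: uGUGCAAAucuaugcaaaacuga
hsa-miR-19b-3p of MIR17HG: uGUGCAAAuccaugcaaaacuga
hsa-miR-92a-3p of MIR17HG: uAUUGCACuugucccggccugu

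MIR22HG had the largest change of the 23 host genes tested. It stood at 24.6 and 30.7 normalized counts in shcontrol (24 and 30 reads) and at 143 and 204 in shBDH1 (146 and 203 reads), 6.29-fold higher (log2 fold change 2.60, SE 0.32, limma adjusted p = 1.3e-07). The groups are far apart, although the level stayed low in both. MIR4435-2HG, which lies beside the gene of the pro-apoptotic protein BIM (BCL2L11), stood at 1999 and 1952 against 2474 and 2468, with replicates nearly equal (log2 fold change 0.32, SE 0.061, limma adjusted p = 8.6e-05).

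MIR17HG, the host of the miR-17-92 cluster and a known MYC target, was not called, with 237 and 227 normalized counts in shcontrol and 271 and 308 in shBDH1 (log2 fold change 0.32, 95% interval -0.01 to 0.65, limma adjusted p = 0.12). Its libraries did not overlap and its point estimate was above 0, in cells whose MYC mRNA was 49.7% lower. MIR155HG, also known as BIC and induced in activated lymphocytes, was low and its groups overlapped, with 37.0 and 38.8 against 38.3 and 29.2 (log2 fold change -0.18, 95% interval -1.07 to 0.72, limma adjusted p = 0.78). Its sign rested on 1 library, with 0.02 without shBDH1 replicate 2.

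Levels can be set side by side only per length, here normalized counts per kilobase of annotated exon, retained introns included. In shcontrol SNHG29 stood highest at 2446, followed by SNHG8 at 1861 and SNHG1 at 1306. SNHG5 (1276), SNHG6 (1256), GAS5 (1206) and ZFAS1 (1170) came next, and from SNHG1 to ZFAS1 neighbours in this order overlapped in their libraries. In shBDH1 SNHG29 stayed on top at 1638 and ZFAS1, at 1107, came next, above SNHG8 at 1030 and SNHG6 at 1022, of which SNHG6 overlapped it in its libraries. ZFAS1 thus moved up the order, although its own change was not called. SNHG14, the highest host in normalized counts over the 4 libraries together (in shcontrol SNHG29 was higher), stood at only 188 per kilobase in shcontrol and 252 in shBDH1 because of its length, and MIR22HG went from 9.26 to 58.2.

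The starts of these genes were searched for the letters of a TOP start and of a TATA box. The RefSeq promoter table (GRCh38.p14, 250 bases before each start and 50 from it on) held 21 of the 25; SNHG6, SNHG9, SNHG15 and SNHG25 had no entry. A pyrimidine run was taken as a C followed by at least 4 bases that are each C or T, on the gene's own strand, beginning within 10 bases of the start. It was found in 13 of the 21 hosts, 61.9%, against 33.3% of all 27305 promoters in the table. Only the first run met, reading from 10 bases before the start, was recorded. The recorded run covered the start itself in SNHG8, SNHG12, SNHG5 and ZFAS1. In SNHG7, SNHG29, SNHG14, SNHG19 and MIR17HG it ended before the start, and in the others it began after it. The windows of SNHG19 and SNHG7 printed below also hold a later run that covers the start, CTTTTC and CCTCT. SNHG29, SNHG14 and MIR17HG were not searched for a later run. A counted run is therefore not in itself a TOP start. TATAA on the gene's own strand, wholly 40 to 16 bases before the start, was found in 6 of the 21, 28.6%, against 4.22%. Those 6 were SNHG8, SNHG19, SNHG5, SNHG7, SNHG12 and ZFAS1, and all 6 also had the run, a pair held by 1.4% of all promoters. The E-box CACGTG, which MYC can bind and which reads the same on both strands, was found in the 300 bases of 1 host, SNHG7, 122 bases before the start, against 7.43% of all promoters.

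Both motifs occurred in hosts that fell and in hosts that were not called, and the difference was not tested. The run was present in 7 of the 10 hosts that fell and in 5 of the 8 that were not called, and TATAA in 4 of 10 and 2 of 8; of the 3 hosts that rose, 1 had the run and none had TATAA. The windows below, 50 bases before and 50 from the start on, so that the start is base 51, show both kinds of host: SNHG8, SNHG19, SNHG5 and SNHG7 fell, ZFAS1 and SNHG16 were not called, and SNHG1 and GAS5 fell with neither motif at the positions searched. A run farther from the start, as in the windows of SNHG1 and GAS5, was not counted. Capitals mark TATAA and the recorded pyrimidine run. In SNHG7 that run extends farther upstream than 10 bases before the start, and only its part inside this limit is marked. The later runs over the start in SNHG19 and SNHG7 are in lower case.
SNHG8 (chr4:118278712-118278811, plus strand): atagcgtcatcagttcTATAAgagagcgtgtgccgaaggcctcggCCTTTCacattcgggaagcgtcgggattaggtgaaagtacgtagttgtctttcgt
SNHG19 (chr16:2155309-2155408, minus strand): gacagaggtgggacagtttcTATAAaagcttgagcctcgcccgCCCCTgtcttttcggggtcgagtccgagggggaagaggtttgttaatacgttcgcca
SNHG5 (chr6:85678684-85678783, minus strand): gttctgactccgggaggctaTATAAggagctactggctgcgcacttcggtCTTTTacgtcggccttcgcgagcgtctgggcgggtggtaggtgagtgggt
SNHG7 (chr9:136728135-136728234, minus strand): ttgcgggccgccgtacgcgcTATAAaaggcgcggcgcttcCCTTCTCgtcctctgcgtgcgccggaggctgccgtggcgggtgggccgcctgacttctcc
ZFAS1 (chr20:49278592-49278691, plus strand): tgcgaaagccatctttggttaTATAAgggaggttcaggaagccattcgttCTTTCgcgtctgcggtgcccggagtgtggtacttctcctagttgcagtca
SNHG16 (chr17:76557714-76557813, plus strand): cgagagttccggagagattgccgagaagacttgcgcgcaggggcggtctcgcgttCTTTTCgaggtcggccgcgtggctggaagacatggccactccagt
SNHG1 (chr11:62855836-62855935, minus strand): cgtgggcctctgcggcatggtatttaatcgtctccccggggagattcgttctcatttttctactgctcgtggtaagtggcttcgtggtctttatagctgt
GAS5 (chr1:173868996-173869095, minus strand): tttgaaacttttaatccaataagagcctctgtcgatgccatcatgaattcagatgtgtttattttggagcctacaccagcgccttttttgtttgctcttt

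ZFAS1 and SNHG5, with TATAA 29 and 30 bases before the start and the recorded run on the start itself, differed in outcome, with log2 fold changes of -0.08 and -0.51. The other hosts with TATAA also have a run over the start, recorded or later. Among them SNHG8 (-0.85), SNHG19 (-0.76) and SNHG7 (-0.33) fell, and SNHG12 (-0.31) was not called. A match is a description of letters and depends on the annotated start. The RefSeq start of GAS5 lies 163 bases from the one in GENCODE 29, that of SNHG1 29 bases and that of SNHG29 165 bases. The distance was larger for ZFAS1 (464 bases), MIR22HG (964), SNHG12 (1259), MIR4435-2HG (28215) and SNHG14 (154975). SNHG7 and SNHG19 have the same start in both.

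Several hosts share a promoter region with a protein-coding gene that starts close by on the other strand, and the values of these pairs did not always move together. SNHG1 starts 188 bases from SLC3A2, the heavy chain of amino acid transporters, which stood at 13521 and 13426 normalized counts against 5355 and 5467 (log2 fold change -1.32, SE 0.04, limma adjusted p = 1.5e-20), so both genes of this pair fell. SNHG19 starts 340 bases from TRAF7, a ubiquitin ligase, at 4605 and 4312 against 3178 and 3353 (log2 fold change -0.45, SE 0.053, limma adjusted p = 6e-08), and here too both fell. GAS5 starts 800 bases from ZBTB37, a zinc finger gene, and the pair went in opposite directions: ZBTB37 stood at 1422 and 1227 against 1795 and 1743 (log2 fold change 0.42, SE 0.076, limma adjusted p = 4.7e-05). MIR22HG starts 651 bases from WDR81, which stood at 736 and 714 against 789 and 669 (log2 fold change 0.00, SE 0.1, limma adjusted p = 0.99), so its groups overlapped while MIR22HG rose 6.29-fold.

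**Figure D3:**
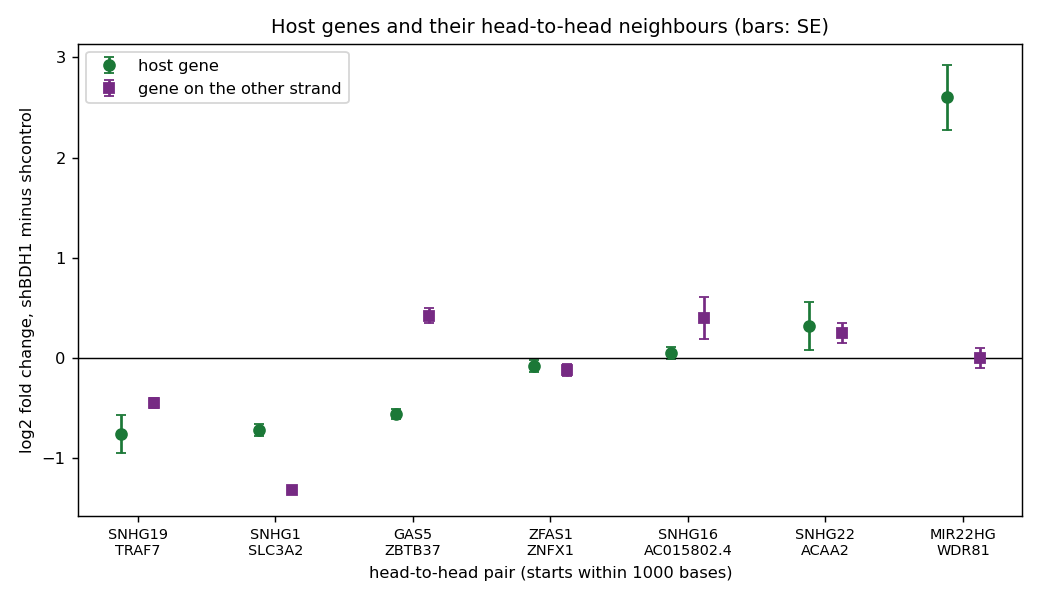
Log2 fold change (y axis, shBDH1 minus shcontrol) of 7 host genes (circles) and of the gene that starts within 1000 bases on the other strand (squares), with SE bars. Both genes of the SNHG1 and SNHG19 pairs lie below 0, GAS5 and ZBTB37 lie on opposite sides, and MIR22HG stands at 2.60 with WDR81 at 0.00.

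Among the hosts not called, SNHG22 starts 63 bases from ACAA2, a mitochondrial thiolase, which rose (log2 fold change 0.25, limma adjusted p = 0.042), SNHG16 starts 83 bases from AC015802.4 (0.40, 0.14) and ZFAS1 starts 248 bases from ZNFX1 (-0.12, 0.13). SNHG9, too low to test, starts 99 bases from RPS2, a ribosomal protein gene that is itself a snoRNA host and fell (log2 fold change -0.14, limma adjusted p = 0.0002).

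Other hosts overlap a gene on the opposite strand without starting head to head. Since the strand setting of the counting is not given in the sources used here, such genes may share reads. Some head-to-head pairs overlap too. GAS5 and ZBTB37 do so by 801 bases and MIR22HG and WDR81 by 652, with no shared exon bases. ZFAS1 and ZNFX1 overlap by 249 bases, all of them in exons of both, so this pair may share reads as well. SNHG29 shares 452 exon bases with LRRC75A, which stood at 3884 and 4067 normalized counts against 2799 and 2835 (log2 fold change -0.50, SE 0.053, limma adjusted p = 1.1e-08), close to the change of SNHG29. SNHG10 shares 391 with GLRX5, a mitochondrial iron-sulfur protein, at 2636 and 2443 against 2316 and 1992 (log2 fold change -0.24, SE 0.068, limma adjusted p = 0.0052), a call lost without shcontrol replicate 1 (-0.19, 0.073) or shBDH1 replicate 2 (-0.13, 0.16). The values of these 2 pairs cannot be separated where they overlap. SNHG7 shares 1094 exon bases with DIPK1B, which stood at 2046 and 2040 against 2154 and 2094 (log2 fold change 0.06, SE 0.063, limma adjusted p = 0.51), so there the host fell and its partner was not called. SNHG16, itself not called, shares 1639 exon bases with AC015802.6 (log2 fold change 0.17, limma adjusted p = 0.12).

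The remaining overlaps of hosts that were called were with low or little-changed genes. MCMDC2 beside SNHG6 had a log2 fold change of -0.25 (limma adjusted p = 0.34), GAS5-AS1 beside GAS5 of -0.26 (0.44) and AC093484.4 beside SNHG29 of -0.21 (0.78), a sign that turned to 0.32 without shcontrol replicate 2 and to 0.47 without shBDH1 replicate 2. BCL2L11, which shares 727 exon bases with MIR4435-2HG, stood at 1709 and 1539 normalized counts against 1736 and 1816 (log2 fold change 0.13, limma adjusted p = 0.15). Within the span of MIR4435-2HG the low long noncoding RNAs AC108463.2 (1.43, 0.0052) and AC017002.5 (1.47, 0.0077) were higher, the first not without shBDH1 replicate 2 (0.11), the second not without shcontrol replicate 2 (0.06) or shBDH1 replicate 1 (0.1). AC068491.2 (2.47, 0.059), ACOXL (0.97, 0.14) and AC017002.6 on the same strand (-0.65, 0.39) were not called, although AC068491.2, at 11.3 and 0 against 17.7 and 19.1, was called without shcontrol replicate 1 (4.28, limma adjusted p = 0.0016) and stood at 0.66 without shcontrol replicate 2 (0.56). AC124312.2, inside SNHG14, rose by 0.37 (limma adjusted p = 0.03) and lost that call with any 1 library left out (0.07 to 0.12). AC124312.6, also inside SNHG14, was too low to test, at 1.0 to 4.1 normalized counts.

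The proteins that work with these transcripts were measured in the same libraries. Of 90 genes in 6 lists, 51 fell and 9 rose (limma, adjusted p under 0.05), against 20.8% lower and 20.3% higher over all genes. Among genes tested at a mean of 100 or more, a level that all 90 reached, the shares were 27.5% lower and 23.5% higher. Among the 8 core proteins of snoRNA particles 6 fell and none rose, all 8 estimates lay below 0, and the median log2 fold change was -0.25. FBL (fibrillarin), the methyltransferase of C/D particles, stood at 8316 and 7878 normalized counts against 5753 and 6025 (-0.46), SNU13, which binds the C and D boxes, fell by 0.44 on the log2 scale, NOP58, a C/D scaffold protein, by 0.26 and NHP2, an H/ACA protein, by 0.43. NOP56 (-0.07) and GAR1 (-0.16) were the 2 not called.

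Of 14 factors that assemble these particles 7 fell and 1 rose (RPAP3, 0.19), with a median of -0.17, and the 1 rise was not called without shcontrol replicate 1 or shBDH1 replicate 2. NOPCHAP1 (C12orf45 in the table), a chaperone of NOP58, had the largest fall, from 1847 and 1806 to 1403 and 1100 normalized counts (log2 fold change -0.56). PIH1D1, of the R2TP chaperone complex, fell by 0.46, NOLC1, a nucleolar phosphoprotein that binds snoRNA particles, by 0.39 and TCOF1, its partner in ribosomal DNA transcription, by 0.24.

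Nonsense-mediated decay removes spliced host transcripts where these are translated and end early, and decay itself was not measured here. Of 16 decay factors 11 fell and 1 rose, the kinase SMG1 at 0.15, with a median of -0.21. Without shcontrol replicate 2 SMG1 was not called. UPF1, the helicase at the centre of the pathway, stood at 7202 and 7092 normalized counts against 5103 and 4783 (log2 fold change -0.53). SMG5, an adaptor of the decay step, fell by 0.35 on the log2 scale, and CASC3 and RBM8A, parts of the exon junction complex, fell by 0.27 and 0.25.

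Of 35 protein-coding snoRNA hosts 19 fell and 2 rose, with a median of -0.12. The median of the 23 tested host genes, microRNA hosts included, was -0.30, and the difference was not tested. NOP56 and DKC1 stand both in the protein-coding list and among the core proteins. EEF2, the translocation factor of the ribosome, stood at 79237 and 78259 normalized counts against 56499 and 55963 (log2 fold change -0.49), RPL4 fell by 0.58 and RPL13A by 0.37. HSPA8, a chaperone gene with C/D RNAs in its introns, went the other way, from 20193 and 20131 to 39442 and 40720 (log2 fold change 0.99). NCL (0.08), the other rise, was not called without shcontrol replicate 1 or without shcontrol replicate 2. Ribosomal protein genes have many near-identical pseudogenes, so their values are less certain.

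Of 10 proteins that control TOP transcripts 6 fell and 2 rose (median -0.17). LARP1, which binds the cap and the pyrimidine run, stood at 16664 and 16326 normalized counts against 12278 and 11529 (log2 fold change -0.47), while LARP4, a poly(A)-binding relative, rose by 0.36. EIF4EBP1 and EIF4EBP2, the translation repressors that mTOR switches off, fell by 0.66 and 0.42, and RPTOR, a subunit of the mTOR complex, rose by 0.26; without shBDH1 replicate 1 only 1 gene of this list was called higher. Of 9 microRNA processing proteins 3 rose and 3 fell (median -0.08). DROSHA, which cuts the hairpin out of hosts such as MIR22HG, stood at 5085 and 5002 against 2425 and 2364 (log2 fold change -1.07), DICER1, which makes the next cut, at 4750 and 4423 against 8051 and 7663 (0.78), AGO2 fell by 0.34 and AGO3 rose by 0.29.

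**Figure D4:**
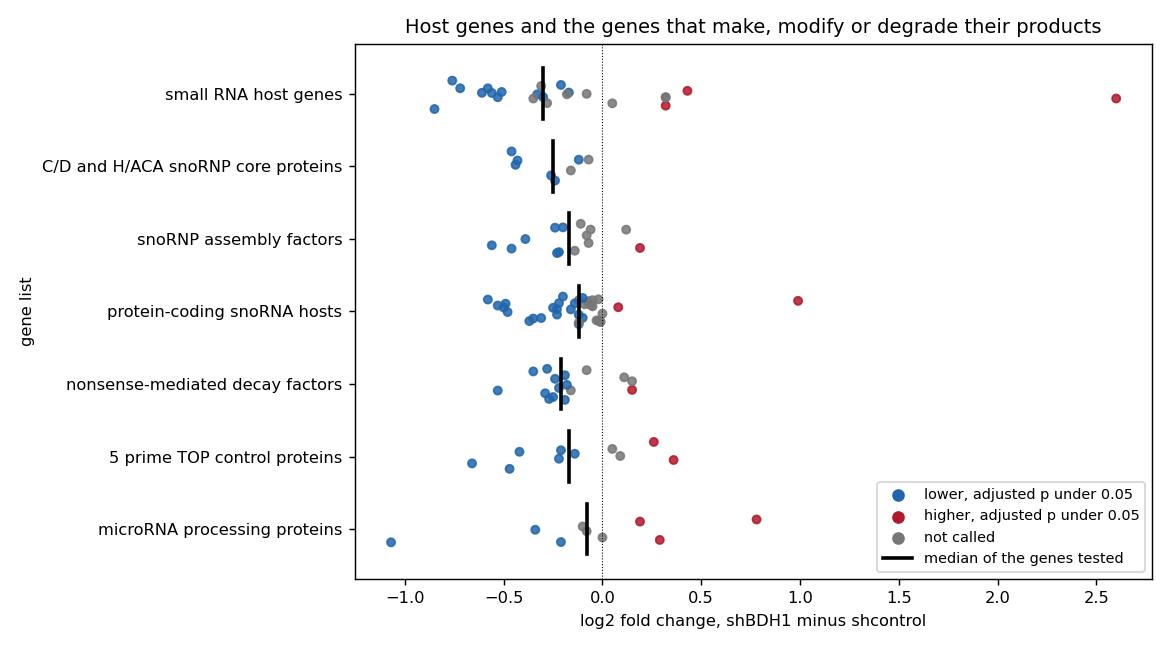
Log2 fold change (x axis, shBDH1 minus shcontrol) of the 23 tested host genes and of the tested genes of the 6 lists around them, 1 point a gene, coloured by the limma call, with a black line at each median. The medians run from -0.30 for the host genes to -0.08 for microRNA processing, and the point farthest right is MIR22HG at 2.60.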

How the data were processed

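The 4 libraries were made from mRNA and read as paired ends, per the labels' protocols. HISAT2 2.2.1, FastQC 0.11.9 and the build hg38 stand in the submitters' processing notes. Not given in the sources used here are the read counter, its strand setting and the annotation release. The values the authors deposited are a normalized signal, gene read counts each divided by a size factor of its library. The evidence is that 100.0% of the values in each library were whole multiples of 1 step (tolerance 0.01 reads), which gave back the reads. Size factors ran from 0.9739 (shcontrol replicate 1) to 1.0174 (shBDH1 replicate 1). The chi-square per degree of freedom was 3.71 and 4.98 between libraries of a group and 42.42 to 45.17 between groups, so no library appeared under 2 names.

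Genes with a mean of at least 10 were tested with limma on log2(value + 1), with a trended variance prior (2 residual and 25.8 prior degrees of freedom) and Benjamini-Hochberg adjustment over all 19301. This scale understates changes of low genes. Run on the recovered reads, edgeR with TMM called 3976 genes higher and 3917 lower, against 3910 and 4020 with limma. The other alternatives were DESeq2, limma-voom, other scalings, filters and pseudocounts, no trend, a block for the replicate number, and fits that leave out each library in turn. The fit was tested on simulated data.

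The host genes, lists and tests were chosen with earlier results of these data known. Every host gene could be named. Per-library values were due for those called, the 6 most abundant and those whose call changed. From each list up to 4 genes with the smallest p were named, and all genes overlapping or head to head with a called host. NOP56, GAR1, RPAP3, SMG1, NCL and RPTOR, and the neighbours of hosts not called, were named after their values were seen. Positions are from GENCODE 29 (GRCh38, the build called hg38), which held 25010 of the gene IDs. Of 131 list and marker entries, 119 were found. The fits used DESeq2 1.42.0, edgeR 4.0.16 and limma 3.58.1 in R 4.3.3, and the rest matplotlib 3.10.9, pandas 2.3.3 and numpy 2.4.6 in Python 3.11.15.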

Additional observations from a re-analysis of the deposited data

How the results depend on the processing

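Over 16 alternatives, 6 of the 12 hosts that fell (SNHG8, SNHG1, SNHG10, SNHG29, GAS5 and SNHG5) and 2 of the 3 that rose (MIR22HG and SNHG14) were called each time. MIR4435-2HG and SNHG7 lost the call only without the variance trend (limma adjusted p = 0.056 and 0.089). That setting called 1598 genes higher and 1246 lower in all, 6 hosts lower, 2 of the other pathway genes higher and 14 lower, and BDH1 at -0.47 missed the threshold (limma adjusted p = 0.083); the cause was not tested. Under the other settings 9 to 13 hosts were called lower and 3 higher. With 1 library left out the ranges were 9 to 12 hosts lower and 3 higher, 42 to 52 pathway genes lower and 6 to 8 higher, -0.57 to -0.36 for BDH1 and -1.0 to -0.98 for MYC, the lone library being assumed to vary like the others. SNHG17 was also lost with DESeq2 (adjusted p = 0.053) and with edgeR's upper-quartile factors (0.063), and SNHG15 in 11 of the 16.

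Signs turned only where no call was made: with 1 library left out SNHG16 ran from -0.02 (without shBDH1 replicate 1) to 0.12, MIR155HG from -0.37 to 0.02 (without shBDH1 replicate 2), WDR81 from -0.12 (without shBDH1 replicate 1; -0.02 without shcontrol replicate 2) to 0.12, and AC093484.4 from -0.89 to 0.47 (without shBDH1 replicate 2; 0.32 without shcontrol replicate 2). The scalings moved the median of all genes between -0.01 and 0.04. With the replicate number as a block 13 hosts were called lower and 3 higher, SNHG12 being added (-0.31, limma adjusted p = 0.042). Same-numbered libraries did not deviate together over the genes tested (r = 0.001). With 2 libraries a group this cannot show whether the libraries were prepared in pairs. DESeq2 gave an adjusted p for 18926 genes. Depth limits the hosts under about 100 normalized counts, and SNHG9 and SNHG25 most.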

Other observations

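Other rows named for a microRNA host were chosen after their values were seen: of 21 tested 4 were higher and 1 lower in shBDH1 (limma, adjusted p under 0.05), beside 20.3% higher and 20.8% lower over all genes tested, so the number that rose is near the background and only the single genes are described. MIR29B2CHG, the host of miR-29b-2 and miR-29c, stood at 514 and 612 normalized counts in shcontrol and at 2159 and 2143 in shBDH1 (log2 fold change 1.94, SE 0.087, limma adjusted p = 1.2e-16). MIR181A1HG, a host of the miR-181 family known for its role in T-cell development, stood at 584 and 602 against 1164 and 1456 (log2 fold change 1.13, SE 0.099, limma adjusted p = 1.8e-10), and MIR181A2HG, the second host of that family, at 154 and 145 against 250 and 277 (log2 fold change 0.81, SE 0.18, limma adjusted p = 0.00069). MIR193BHG was low, at 18.5 and 18.4 against 57.0 and 88.5 (log2 fold change 1.89, SE 0.43, limma adjusted p = 0.0008). MIR4697HG was the 1 that fell, from 1038 and 1108 to 801 and 754 (log2 fold change -0.46, SE 0.089, limma adjusted p = 9.8e-05).

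Rows of snoRNAs and scaRNAs themselves were 3, of which 1 was tested and none called, and SNORA11F, that 1 gene, stood at 15.1 to 20.6 normalized counts (limma, unadjusted p = 0.93). Rows of microRNA genes were 56, of which 20 were tested, 1 called higher and 1 lower.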
